A study of Mus musculus with 48 samples.

Results

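The genes described here are the 41 amino acid transporter genes of 7 solute carrier families, SLC1, SLC3, SLC6, SLC7, SLC36, SLC38 and SLC43, out of 15569 genes counted in sorted mouse endothelial cells. They were taken by symbol alone, as every row whose name starts with Slc, continues with 1, 3, 6, 7, 36, 38 or 43 and the letter a, and ends in a number. SLC7 gave 11 members, SLC38 10, SLC6 8, SLC1 5, SLC36 and SLC43 3 each, and SLC3 1. All 41 passed the filter on low counts.

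All mice carried Abcg2CreERT, a tamoxifen-inducible Cre driven by the drug efflux gene Abcg2, and ROSATdTomato, a red reporter switched on by Cre, and all received 50 mg/kg tamoxifen 24 h before dissection. CD31+CD45-Ter119- cells were sorted into a TdTomato+ and a TdTomato- fraction, which the submitters call, respectively, vascular endothelial stem cells and mature endothelium. The 5 combinations of tissue and age were P1 heart and P1 lung (postnatal day 1), P6 muscle (postnatal day 6), and 6W heart and 6W muscle (6 weeks). The TdTomato+ library of P1 heart pair 1 failed quality control according to its label, and without that pair the 48 libraries come to 46, in 23 matched pairs: 4 pairs in P1 heart and in 6W muscle and 5 in each of the other combinations. The TdTomato+ fraction holds the cells in which Abcg2 drove Cre at the time of tamoxifen. Whether each pair came from 1 animal or from pooled animals is not in the labels, and p-values therefore reflect only sample-to-sample spread, which may be partly technical.

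Amino acids cross membranes on carriers that differ in cargo, in the ion that drives them and in whether they exchange or accumulate. SLC7 light chains such as Slc7a5 (LAT1, large neutral amino acids) reach the cell surface bound to the heavy chain Slc3a2 (4F2hc, also CD98) and swap an intracellular amino acid, often glutamine, for an essential one outside, while sodium-coupled carriers such as Slc38a2 (SNAT2) and Slc1a5 (ASCT2) supply the exchanged amino acid. Carriers at the lysosome report amino acids to the growth kinase complex mTORC1, and when amino acids run short the transcription factor ATF4 raises several carrier genes through C/EBP-ATF elements in their promoters.

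Promoters are shown because genes commonly listed as ATF4 targets moved in opposite directions with age, as described further on. The element core TGATGNAA was searched on both strands in RefSeq promoter windows of GRCm38.p6, which run from 250 bases before to 50 bases after a start. Windows were found for 29 of the 41 members, 41 windows in all, and 4 of these windows (9.76%), in 3 members, held a match. Over all 32851 windows the share was 3.97%. Capitals mark each match within the stretches shown, and positions count from the start, with no position 0. The exchanger subunit Slc7a11 (xCT, cystine for glutamate) held a match in each orientation 19 bases apart in a stretch from -100 to -21 (chr3:50443634-50443713, minus strand). The neutral amino acid exchanger Slc1a4 (ASCT1) is shown from -76 to 4 (chr11:20332710-20332789, minus strand), and the light chain Slc7a7 (y+LAT1, dibasic amino acids) from -73 to 7 (chr14:54417938-54418017, minus strand). Its site at -1 to 7 also lies in an overlapping Slc7a7 window, at -243 to -236, so both windows count as matched. A further Slc7a7 match, at -141 to -134, lies outside the stretch shown. The heavy chain gene Slc3a2 is also shown, from -100 to -1 (chr19:8713898-8713997, minus strand), and held no match in its window. The start of that window lies inside the span the count table gives the gene. Bases outside the promoter windows were not searched, so this does not show that Slc3a2 lacks an element.
Slc7a11: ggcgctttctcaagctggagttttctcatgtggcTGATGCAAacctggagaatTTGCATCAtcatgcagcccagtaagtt
Slc1a4: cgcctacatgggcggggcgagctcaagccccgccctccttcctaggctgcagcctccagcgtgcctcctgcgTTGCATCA
Slc7a7: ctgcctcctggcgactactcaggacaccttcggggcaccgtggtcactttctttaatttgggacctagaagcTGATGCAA
Slc3a2: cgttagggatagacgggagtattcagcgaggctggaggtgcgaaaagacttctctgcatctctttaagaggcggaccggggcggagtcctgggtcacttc

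The libraries held 17512843 to 27622937 counts each. The mean log2 CPM (counts relative to the TMM-scaled library size) of 12 endothelial markers was high in all 46 libraries, and each marker reached 10 CPM on average in every group. This shows endothelial RNA in each library, not how pure the sorted cells were. Markers of other cells differed between groups. Fibroblast markers in P1 heart summed to 280.3 to 747 CPM in TdTomato+ and to 1161 to 1693 CPM in TdTomato-. Lung epithelium markers in P1 lung summed to 1464 to 64610 CPM in TdTomato+ and to 1941 to 8208 CPM in TdTomato-, with pairs 6, 7 and 8 holding the high TdTomato+ libraries. The 12 endothelial markers summed to 10120 to 14250 CPM in P1 lung TdTomato+, below the highest epithelial sum. Skeletal fibre markers summed to 508 to 1101 CPM in P6 muscle and to 49.0 to 290.7 CPM in 6W muscle. Because the RNA is bulk, fewer cells of a type and less RNA per cell cannot be told apart in any result that follows. Pericyte and smooth muscle markers summed to 29.5 to 91.12 CPM in P1 heart, and in 6W heart to 306.7 to 1872 CPM in TdTomato+ and 83.3 to 381.8 CPM in TdTomato-. Of their 10, 4 were called higher in 6W heart TdTomato+ (median log2 fold change 2.12), as were 2 of 10 fibroblast markers (median 1.54). In P1 lung 7 of the 12 endothelial markers were called lower in TdTomato+ and none higher, with a median of -0.37. RNA integrity was lower in TdTomato+ than in TdTomato- in 6W muscle, 6.8 to 7.9 against 9.2 to 10. In P1 heart it was 3.6 to 8.5 against 8.0 to 9.2, with TdTomato+ 4 at 3.6. In pairs 1, 2 and 4 of 6W heart it was 7.4 to 7.7 against 9.0 to 9.2. The labels of 6W heart pairs 5 and 6 name heart in their titles and muscle in their tissue field. Their libraries held cardiomyocyte markers, and they were kept as heart.

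The same 6 members were the highest per length in each of the 10 groups, in varying order. Per length, in RPKM (CPM divided by the gene length in kilobases) averaged over the 10 group means, the highest member was Slc43a3, a purine nucleobase carrier, at 259, above 98.3% of all genes. The taurine carrier Slc6a6 followed at 125 and the heavy chain Slc3a2 at 116. Next came Slc38a10, a less studied SLC38 member, at 56.1, Slc1a5 at 46.5, and Slc38a2 at 35.0. The light chains were much lower. Slc7a7 stood at 18.07, Slc7a5 at 9.48 and Slc7a6 (y+LAT2, dibasic and neutral amino acids) at 5.91 RPKM, so the heavy chain exceeded each light chain per length. At the other end, Slc6a3, the dopamine carrier, had no count in the libraries of P1 heart, P6 muscle, 6W heart and 6W muscle.

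**Figure D1:**
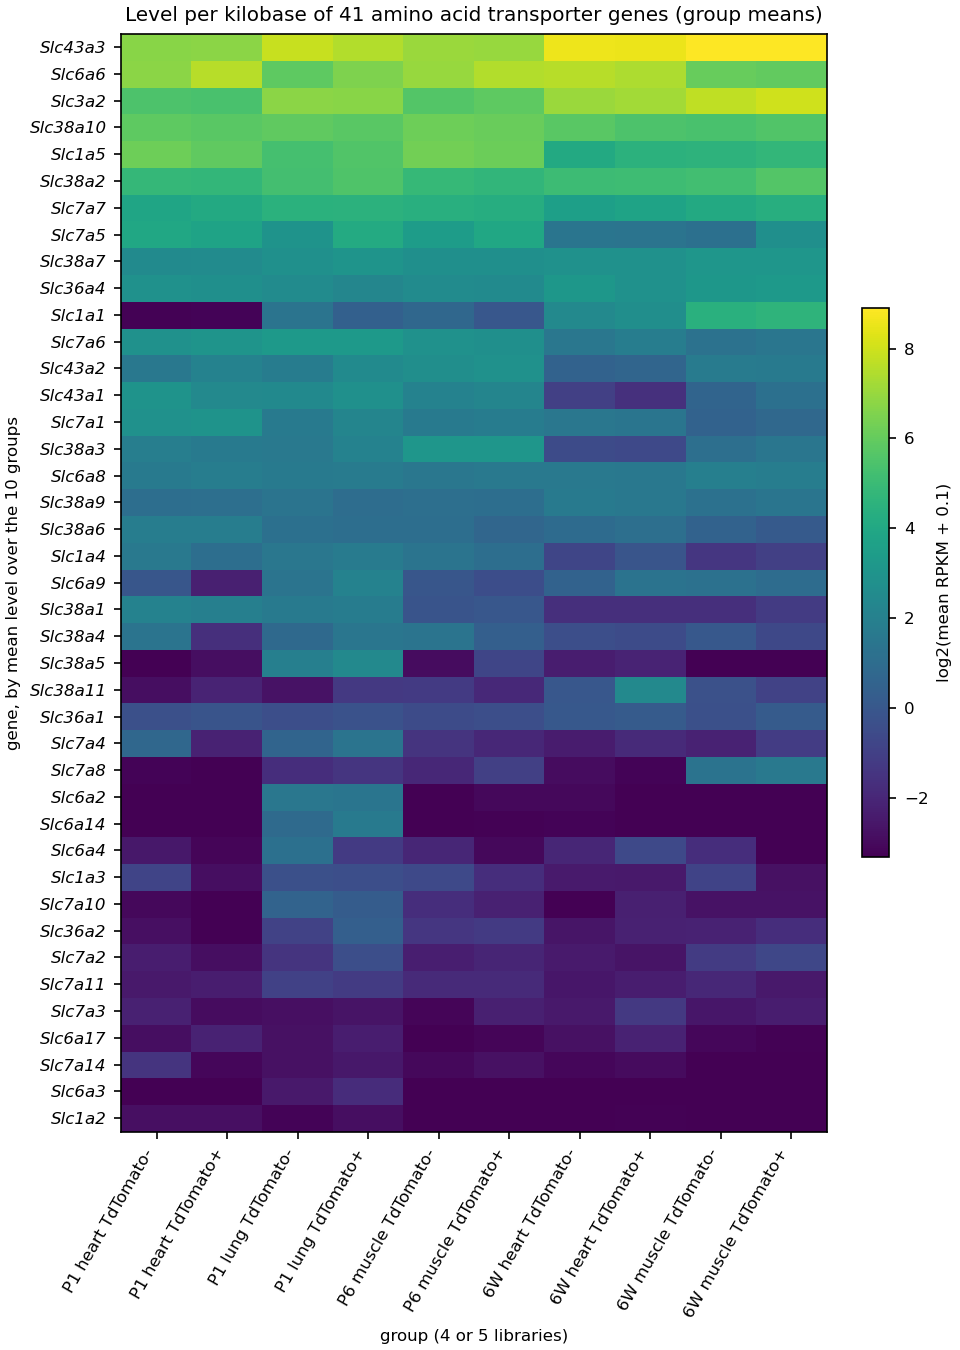
Each cell is the mean level of 1 gene in 1 group of 4 or 5 libraries, as log2(RPKM + 0.1), with genes ordered by their mean over the 10 groups. Slc43a3, Slc6a6 and Slc3a2 lead, and most of the genes lie near the bottom of the scale.

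On the CPM scale, members averaging at least 1 CPM numbered 26 in P1 heart, 34 in P1 lung, 27 in P6 muscle, 24 in 6W heart and 28 in 6W muscle. At least 100 CPM was reached by 6 members in each of the younger combinations and by 5 in each of the 6W ones. The order of the leading members shifted with age. In RPKM, Slc43a3 stood at 106 ± 10 (SD, n = 4) and Slc6a6 at 108 ± 13 (SD, n = 4) in P1 heart TdTomato-, which do not differ beyond their spread. In 6W heart TdTomato- they stood at 388 ± 66 and 195 ± 25 (SD, n = 5). The light chain Slc7a5 was at 15.7 ± 3.3 RPKM (SD, n = 4) in P1 heart TdTomato- and at 2.61 ± 0.70 (SD, n = 5) in 6W heart TdTomato-, while Slc3a2 was at 44.1 ± 2.6 and 135 ± 26.

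The age comparisons asked how endothelium at 6 weeks differed from that at P1 in heart and at P6 in muscle. Counts of the 2 fractions of a pair were summed, so each pair entered once. Of the 41 members, 22 were called in heart at an adjusted p below 0.05, 7 higher and 15 lower at 6 weeks, where 52% of all genes tested were called, 25.5% higher and 26.5% lower. In muscle 22 were called, 8 higher and 14 lower, where 45.9% of all genes were called, 22.7% higher and 23% lower. These shares of 53.7% in each organ are near the background, so a call by itself says little here. The median log2 fold change of the 41 members was 0.07 in heart and -0.56 in muscle, against 0.00 and -0.00 over all genes. Total count scaling in place of TMM moved the median of all genes to -0.18 in heart and -0.14 in muscle.

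The direction was shared between the organs for the members called in both. Slc1a1, Slc3a2, Slc43a3 and Slc6a9 were higher at 6 weeks in heart and in muscle. The members lower in both numbered 11: Slc1a4, Slc1a5, Slc38a1, Slc38a3, Slc38a4, Slc38a6, Slc43a1, Slc43a2, Slc7a1, Slc7a5 and Slc7a6. No member was called in opposite directions. Over all genes 31.7% were called in the same direction in both organs and 1.31% in opposite ones. A shared direction is therefore not particular to the members. The Slc38a4 call was lost on leaving out 5 of 9 pairs in turn in heart and 3 of 9 in muscle. The 2 comparisons share no library, but muscle age goes with sequencing run: all 6W muscle libraries and 6W heart pairs 5 and 6 came from the second run. The effect of run in a covariate fit therefore comes from 6W heart alone, 3 pairs in the first run and 2 in the second. Within muscle, run and age cannot be told apart, and such a fit takes the run difference of heart to hold in muscle.

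**Figure D2:**
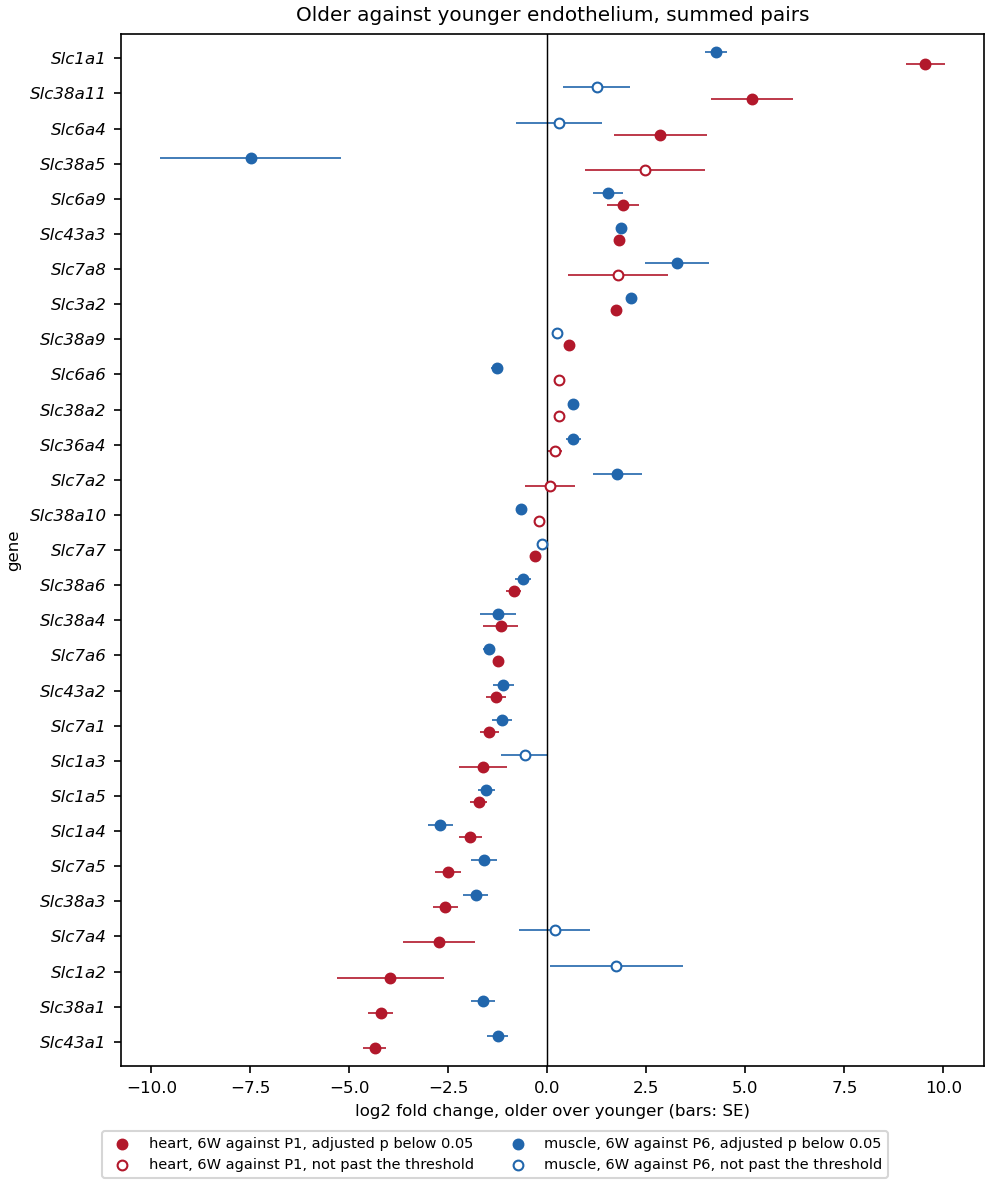
Log2 fold change with SE for each member called in at least 1 of the age comparisons, red for heart (6W over P1) and blue for muscle (6W over P6), filled where the adjusted p is below 0.05. Slc1a1 lies farthest to the right in both organs, and Slc43a1 and Slc38a1 lie far to the left in heart, while the position of Slc38a5 in muscle depends on the prior count, as it had no count at 6 weeks.

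The heavy chain and its best known light chain went opposite ways. Slc3a2 (chr19:8706882-8723369, minus strand, mm10) had 136, 139, 112 and 119.5 CPM in the 4 P1 heart pairs, as the mean of the fractions. It had 351, 365, 510.5, 453 and 398 CPM in the 5 pairs of 6W heart. In muscle it had 157, 171, 159, 164 and 152 CPM at P6 and 755, 632, 662 and 735 CPM at 6 weeks. Every 6W pair lay above every younger pair in both organs. The log2 fold change was 1.72 ± 0.11 (SE, n = 5 and 4 pairs) in heart and 2.11 ± 0.11 in muscle by edgeR's quasi-likelihood test (adjusted p = 3.53e-11 and 1.99e-12).

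Slc7a5 (chr8:121881146-121907686, minus strand) had 56.7, 55.5, 39.1 and 54.2 CPM in the P1 heart pairs and 12.09, 9.82, 8.95, 7.93 and 6.30 CPM in those of 6W heart. In muscle it had 41.1, 47.7, 44.7, 52.7 and 44.1 CPM at P6 and 11.6, 16.3, 24.7 and 9.19 CPM at 6 weeks. Older and younger pairs did not overlap in either organ. Its log2 fold change was -2.52 ± 0.33 in heart and -1.60 ± 0.33 in muscle (edgeR adjusted p = 1.18e-06 and 4.43e-04). With sequencing run as a covariate, its effect taken from 6W heart, the muscle call for Slc7a5 was lost (-1.09, adjusted p = 0.146). In that fit Slc3a2 stood at 2.04 in muscle. Among the other light chains of Slc3a2, Slc7a6 was lower in both organs, at -1.24 ± 0.14 in heart and -1.47 ± 0.14 in muscle (edgeR adjusted p = 9.04e-08 and 2.25e-08). Slc7a7 was lower in heart by a small amount, -0.31 ± 0.11 (edgeR adjusted p = 0.0234), and that call was lost in the first sequencing run alone, which holds the P1 heart libraries and 3 of the 5 pairs of 6W heart. Slc7a8 (LAT2, small and large neutral amino acids) was higher in 6W muscle, as given with the organs further on.

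**Figure D3:**
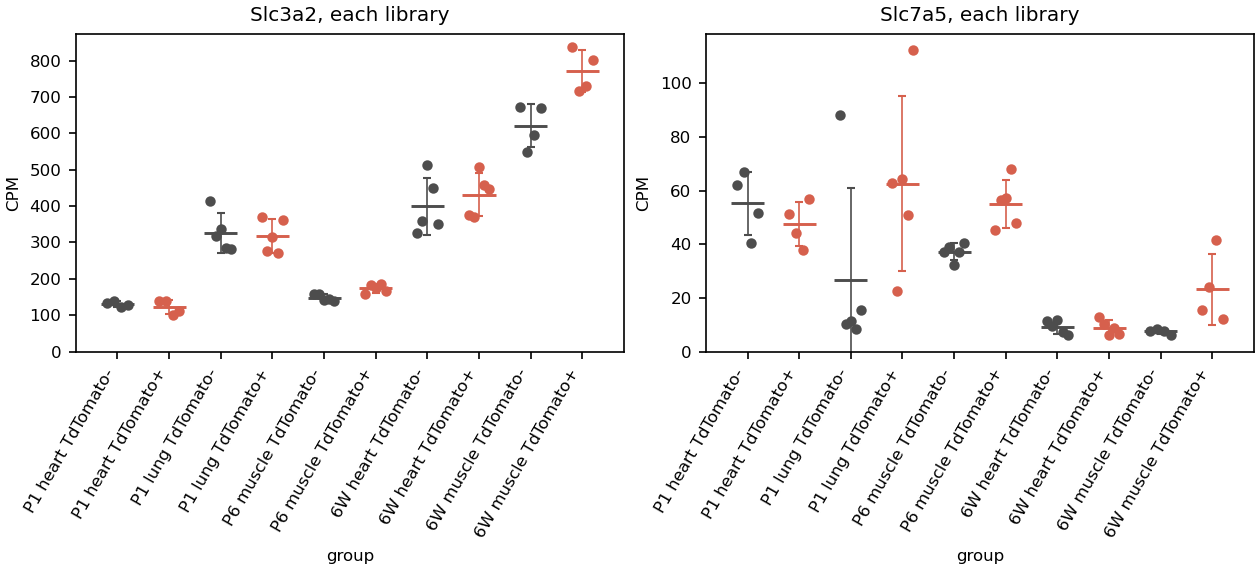
CPM of the heavy chain Slc3a2 (left) and the light chain Slc7a5 (right) in each library, grey for TdTomato- and red for TdTomato+, with the group mean as a line and the SD as a bar. Slc3a2 is higher and Slc7a5 lower in the 6W groups than in the younger groups of the same organ, and 1 P1 lung TdTomato- library stands at 88.05 CPM of Slc7a5.

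Of the members higher with age, Slc1a1 (EAAT3, glutamate, aspartate and cysteine) changed most. Slc1a1 (chr19:28835166-28913960, plus strand) had 0, 0, 0.0434 and 0.0616 CPM in the P1 heart pairs and 20.6, 16.3, 16.9, 24.3 and 30.2 CPM in those of 6W heart. Over those pairs 4181 counts faced 5, a ratio of 716 (95% counting interval 307 to 2207). In muscle it had 3.38, 5.53, 3.08, 4.85 and 6.20 CPM at P6 and 81.96, 95.7, 69.97 and 92.6 CPM at 6 weeks, a log2 fold change of 4.25 ± 0.28 (edgeR adjusted p = 7.46e-11). Ages did not overlap in either organ. Slc1a1 shares 31.9% of its exonic bases with 4430402I18Rik on the opposite strand, and the sources used here do not state the strand setting of the counting. That gene averaged 0.701 CPM in TdTomato- and 1.36 CPM in TdTomato+ of P1 heart, and 3.47 and 3.84 CPM in those of 6W muscle. The part of the shared bases in the Slc1a1 counts was not tested.

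Slc43a3 (chr2:84936646-84958509, plus strand) had 284, 269, 247 and 321 CPM in the P1 heart pairs and 946, 826, 1232, 1019 and 893 CPM in those of 6W heart. In muscle it had 341, 318, 351, 347 and 334 CPM at P6 and 1139, 1284, 1109.7 and 1389 CPM at 6 weeks. Ages did not overlap, and the log2 fold change was 1.81 ± 0.12 in heart and 1.87 ± 0.12 in muscle (edgeR adjusted p = 5.03e-11 and 3.46e-11). Slc6a9 (GLYT1, glycine) was higher by 1.92 ± 0.40 in heart and 1.53 ± 0.38 in muscle on the log2 scale, but the heart call was lost in the TdTomato- libraries alone (0.62, adjusted p = 0.202), and the muscle call in the TdTomato+ libraries alone (1.60, adjusted p = 0.0674). Slc6a9 shares 27.8% of its exonic bases with Ccdc24 on the opposite strand.

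Among the members lower with age were carriers of glutamine and other neutral amino acids. Slc1a5 (chr7:16781346-16798274, plus strand), a glutamine exchanger, had 126, 255, 187 and 169.9 CPM in the P1 heart pairs and 69.6, 52.1, 64.2, 42.1 and 48.9 CPM in those of 6W heart. It had 249, 158, 208, 214.5 and 218 CPM at P6 and 61.7, 68.5, 73.2 and 81.5 CPM at 6 weeks in muscle. The fall amounted to log2 fold changes of -1.73 ± 0.21 and -1.55 ± 0.22 (edgeR adjusted p = 5.08e-07 and 5.36e-06), with no overlap between ages in either organ. Slc38a1 (SNAT1, glutamine), on chr15:96571418-96642913 on the minus strand, had 38.5, 33.7, 28.3 and 32.5 CPM in the P1 heart pairs and 0.966, 2.84, 1.96, 1.81 and 1.43 CPM in those of 6W heart. In muscle it had 6.05, 7.68, 8.13, 6.66 and 6.96 CPM at P6 and 3.38, 1.57, 3.35 and 0.828 CPM at 6 weeks, with no overlap. The log2 fold change of Slc38a1 was -4.21 ± 0.31 in heart and -1.62 ± 0.30 in muscle (edgeR adjusted p = 1.81e-10 and 1.19e-04).

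Slc43a1 (LAT3, branched-chain amino acids and phenylalanine) had 19.3, 19.9, 21.8 and 14.06 CPM in the P1 heart pairs and 0.623, 1.19, 0.711, 1.403 and 0.654 CPM in those of 6W heart. In muscle it had 14.4, 13.4, 14.8, 12.105 and 10.04 CPM at P6 and 7.21, 3.29, 7.48 and 3.39 CPM at 6 weeks. The log2 fold change was -4.37 ± 0.29 in heart and -1.26 ± 0.26 in muscle (edgeR adjusted p = 3.85e-11 and 4.86e-04), again with no overlap. Its relative Slc43a2 (LAT4) was lower by smaller steps, -1.30 ± 0.26 in heart and -1.12 ± 0.27 in muscle, and the muscle call was lost with run as a covariate (-0.68, adjusted p = 0.263). Slc38a3 (SNAT3, glutamine and histidine) fell from 6.07 to 12.0 CPM across the P1 heart pairs to 1.03 to 2.76 CPM across those of 6W heart, and in muscle from 20.2 to 26.2 CPM to 2.93 to 9.26 CPM. Slc1a4 (serine, alanine and cysteine) was lower at 6 weeks, with log2 fold changes of -1.95 ± 0.29 in heart and -2.71 ± 0.32 in muscle (edgeR adjusted p = 7.91e-06 and 4.45e-07), and the heart call was lost in the TdTomato+ libraries alone (-1.29, adjusted p = 0.0675). The arginine and lysine carrier Slc7a1 (CAT1) was lower by -1.47 ± 0.25 in heart and -1.15 ± 0.26 in muscle (edgeR adjusted p = 3.43e-05 and 8.93e-04).

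Other calls were made in 1 organ only, and whether the organs differ in them was not tested. In muscle, the taurine carrier Slc6a6 (chr6:91684067-91759063, plus strand) had 800.0, 924, 1077, 1038 and 946 CPM at P6 and 418, 399, 346 and 427 CPM at 6 weeks, a log2 fold change of -1.28 ± 0.13 (edgeR adjusted p = 6.86e-08). In heart Slc6a6 had 949, 1031, 805 and 916 CPM at P1 and 1199, 1026, 1333, 973 and 1058 CPM at 6 weeks, which overlap. Slc38a2 was higher in 6W muscle by 0.65 ± 0.13 (edgeR adjusted p = 3.36e-04), and not past the threshold in the TdTomato- libraries alone (0.32, adjusted p = 0.0806). Slc38a11, also of the SLC38 family, had at most 0.509 CPM in the P1 heart pairs and 2.83 to 8.02 CPM in those of 6W heart. Between the same heart pairs 9 of 10 pericyte and smooth muscle markers were called higher at 6 weeks, and their part was not tested. In muscle 8 of 10 fibroblast and 7 of 10 skeletal fibre markers were called lower at 6 weeks, and their part in the muscle results was not tested either. Slc38a5 (SNAT5), at up to 0.978 CPM in P6 muscle, had no count in 6W muscle and was at least 29.5-fold lower there, taking 3 counts over the group as the floor. In heart, the low members Slc1a3, Slc38a4 and Slc7a4 were lower at 6 weeks over the summed pairs (-1.63, -1.18 and -2.74) and had the opposite sign, not past the threshold, in the TdTomato+ libraries alone (1.12, 1.47 and 0.48). Fibroblast markers differed between the fractions of P1 heart, as given above, and their part was not tested. The remaining calls with age were Slc6a4 at 2.84 and Slc1a2 at -3.97 in heart, and Slc7a2 at 1.76 and Slc38a10 at -0.67 in muscle. Slc6a4 did not reach the threshold in the TdTomato- libraries alone or with total count scaling, and Slc7a2 did not with run as a covariate.

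The 9 members commonly listed as ATF4 targets did not move as a group. In heart 6 of the 9 were called, beside 52% of all genes, Slc3a2 and Slc6a9 higher and Slc7a5, Slc7a1, Slc1a4 and Slc1a5 lower, with a median of -0.14. In muscle 7 were called, beside 45.9% of all genes, 3 higher with Slc38a2 added and 4 lower, with a median of -0.56. Of the 3 members with a TGATGNAA match printed above, Slc1a4 was lower in both organs, Slc7a7 was lower in heart, and Slc7a11, at 0.223 to 2.62 CPM in these pairs, was not called in either. The windows of 12 members, Slc7a5, Slc1a5 and Slc43a3 among them, were not searched. Of all genes, 25.5% were called higher in heart and 22.7% in muscle. Near that share, 1 of the 4 carriers of the lysosome was called higher in each organ. In heart this was Slc38a9, an arginine sensor of mTORC1, at 0.54 ± 0.12 (edgeR adjusted p = 4.38e-04), and in muscle Slc36a4 at 0.65 ± 0.19 (edgeR adjusted p = 0.00616), a call lost with run as a covariate (0.51, adjusted p = 0.247).

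Around the carriers, gene lists of amino acid use were read in the same fits, where 52% of all genes were called in heart and 45.9% in muscle. Of 20 aminoacyl-tRNA synthetases, which charge tRNA with amino acids, 18 were lower and 1 higher in 6W heart, and 13 were lower and 1 higher in 6W muscle, with medians of -0.46 and -0.34. Gars, the glycine enzyme, stood at -0.76 in heart and -0.86 in muscle. Of 13 genes of serine, glycine and one-carbon metabolism, 8 were lower and 1 higher in heart, and 9 were lower and 1 higher in muscle. Psat1, an enzyme of serine synthesis, was lower by -4.46 ± 0.29 in heart and -2.89 ± 0.29 in muscle (edgeR adjusted p = 3.51e-11 and 4.38e-08), and the mitochondrial folate enzyme Mthfd1l by -2.62 and -2.30. Aldh18a1, which opens proline synthesis from glutamate, stood at -2.41 and -3.02. Of 12 genes of arginine and nitric oxide, 2 were higher and 5 lower in heart, among them Odc1 of polyamine synthesis at -2.58, and 3 were higher and 5 lower in muscle. Of 25 genes of amino acid sensing by mTORC1, 6 were higher and 2 lower in heart and 8 were higher and 1 lower in muscle, with Sesn1, a leucine sensor relative, at 1.05 and 1.06. Of 11 glutamine and glutamate genes, 2 were higher and 4 lower in each organ. Glutathione synthesis showed 2 calls of 11 in each organ, and branched-chain amino acid breakdown 7 of 15 in each, in both directions. The shares called of the glutamine and glutamate, branched-chain and arginine lists in heart are near those over all genes, and the shares of the mTORC1 and glutathione lists are below them in both organs.

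The fractions were compared within pairs, with 1 TdTomato+ effect for each combination. Of the 41 members, 4 were called in P1 heart, 1 higher and 3 lower in TdTomato+, where 14.7% of all genes were called, 7.51% higher and 7.21% lower. In P1 lung 5 were called, 4 higher and 1 lower, against 9.78% of all genes, 4.88% higher and 4.9% lower. In P6 muscle 1 was higher, against 0.977% of all genes, 0.624% higher and 0.354% lower. In 6W muscle 3 were higher, against 5.23% of all genes, 1.7% higher and 3.53% lower. No member was called in 6W heart by edgeR's quasi-likelihood test, against 0.874% of all genes, 0.598% higher and 0.276% lower. The unadjusted p was below 0.05 there for 6 members, and DESeq2 called 1 of the 41, Slc38a11 at 2.67. Of 10 pericyte and smooth muscle markers, 4 were called higher in the same TdTomato+ libraries, as given above, and their part in the Slc38a11 difference was not tested. The medians of the members lay between -0.16 in P1 heart and 0.15 in 6W muscle. These shares are near the background in P1 heart, P1 lung and 6W muscle.

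Slc6a6 was the member most often called between fractions. In P1 heart it had 1189, 1405, 1051 and 1095 CPM in TdTomato+ and 709.8, 657, 559 and 737 CPM in TdTomato-. In P1 lung it had 473, 569.7, 644, 491 and 639 CPM in TdTomato+ and 239, 392, 538, 301 and 321 CPM in TdTomato-. TdTomato+ was above its partner in all 9 of these pairs, with groups apart in heart and overlapping in lung. The log2 fold change was 0.83 ± 0.11 (SE, n = 4 pairs) in P1 heart and 0.70 ± 0.10 (n = 5 pairs) in P1 lung by edgeR's quasi-likelihood test (adjusted p = 2.77e-05 and 3.38e-05). In P6 muscle it had 912.5, 1056, 1244, 1320 and 998 CPM in TdTomato+ and 687.5, 792, 910.0, 756 and 893 CPM in TdTomato-, higher in 5 of 5 pairs, at 0.45 ± 0.10 (edgeR adjusted p = 0.0209).

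At 6 weeks the fitted effect for Slc6a6 had the opposite sign. In 6W heart TdTomato+ had 1149, 865, 1223, 899.9 and 1014 CPM and TdTomato- 1250, 1187, 1443, 1045 and 1102 CPM, lower in 5 of 5 pairs, at -0.23 ± 0.10, which did not pass the threshold (edgeR adjusted p = 0.347). In 6W muscle it had 436, 390.2, 302 and 390.4 CPM in TdTomato+ and 399, 407, 390.4 and 463 CPM in TdTomato-, at -0.14 ± 0.11 (edgeR adjusted p = 0.615). The test that the 5 effects are equal gave an adjusted p of 1.85e-05 for Slc6a6. Averaged over the combinations its effect was 0.32 ± 0.05 (edgeR adjusted p = 7.35e-05), with TdTomato+ higher in 15 of 23 pairs. The P6 muscle call was lost without the pair block (adjusted p = 0.371) and on leaving out any of pairs 1 to 4. The calls in P1 heart and P1 lung were kept on leaving out each pair.

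**Figure D4:**
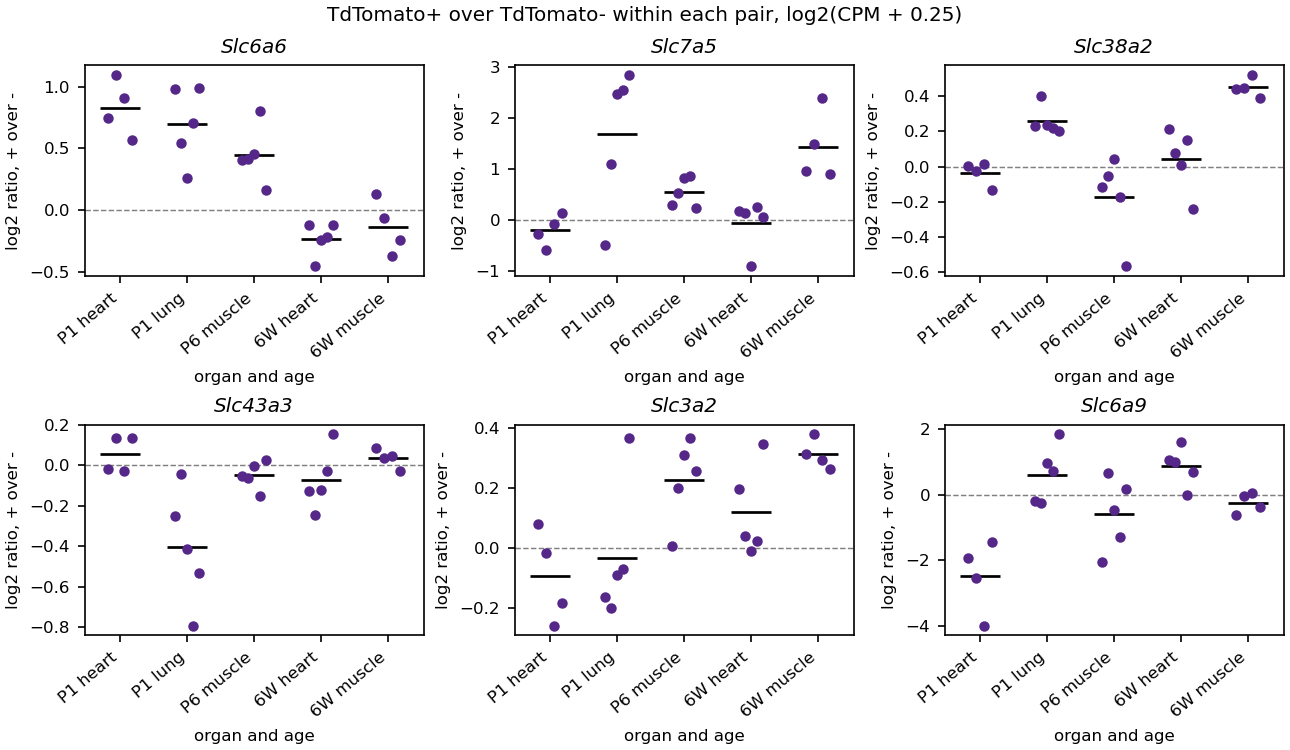
Log2 ratio of TdTomato+ over TdTomato- in each of the 23 pairs, on log2(CPM + 0.25), for 6 members, with the mean of each combination as a line. Slc6a6 lies above 0 in every pair of the younger combinations and below 0 in all 5 pairs of 6W heart.

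Slc7a5 was higher in TdTomato+ in P1 lung and in 6W muscle. In P1 lung it had 62.7, 22.4, 64.4, 51.0 and 112.5 CPM in TdTomato+ and 88.05, 10.4, 11.5, 8.56 and 15.5 CPM in TdTomato-, in the order of pairs 1, 5, 6, 7 and 8. TdTomato+ was higher in 4 of 5 pairs and lower in pair 1. Its log2 fold change was 1.75 ± 0.34 (edgeR adjusted p = 0.00108). Lung epithelium markers were high in the TdTomato+ libraries of pairs 6, 7 and 8, and without these pairs Slc7a5 stood at 0.29 (adjusted p = 0.865). Their part in the result was not tested. Without the pair block the effect was 1.22 (adjusted p = 0.0729).

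In 6W muscle Slc7a5 had 15.4, 24.14, 41.6 and 12.0 CPM in TdTomato+ and 7.80, 8.46, 7.77 and 6.33 CPM in TdTomato-, groups that do not overlap. The log2 fold change was 1.47 ± 0.37 (edgeR adjusted p = 0.0184), and the call was lost without the block (1.62, adjusted p = 0.0664), with RNA integrity as a covariate (1.21, adjusted p = 0.187) and without pair 3 or pair 4. In P6 muscle TdTomato+ had 45.2, 56.4, 57.1, 68.2 and 47.8 CPM and TdTomato- 37.0, 39.1, 32.3, 37.3 and 40.5 CPM. These groups did not overlap either, yet the effect of 0.55 did not pass the threshold (edgeR adjusted p = 0.695). In P1 heart and 6W heart the effects were -0.21 and -0.06. The 5 effects of Slc7a5 differed (edgeR adjusted p = 0.0106), and their mean was 0.70 ± 0.15 (adjusted p = 0.00442), higher in 18 of 23 pairs.

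In 6W muscle the partner Slc3a2 was also higher in TdTomato+, with 837, 715, 729 and 802 CPM against 673, 549, 594.5 and 668 CPM in TdTomato-. Groups did not overlap, and the log2 fold change was 0.31 ± 0.08 (edgeR adjusted p = 0.0241), a call lost on leaving out any of the 4 pairs and without the block (adjusted p = 0.269). Slc38a2 (chr15:96687392-96699698, minus strand) had 154, 247, 263 and 262 CPM in TdTomato+ and 113, 181, 183 and 199 CPM in TdTomato- there, higher in 4 of 4 pairs with overlapping groups. Its effect was 0.45 ± 0.08 (edgeR adjusted p = 0.00145), and it was lost without the block (adjusted p = 0.128). Skeletal fibre markers in 6W muscle summed to 49.0 to 86.2 CPM in TdTomato+ and 104 to 290.7 CPM in TdTomato-. Their part in these results was not tested.

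Slc38a2 was higher in 5 of 5 pairs of P1 lung as well, with 260.2, 203, 189, 183 and 223 CPM in TdTomato+ and 221, 154, 160.3, 157 and 194 CPM in TdTomato-, at 0.26 ± 0.07 (edgeR adjusted p = 0.0207). Slc43a3 went the other way in P1 lung, with 532, 606, 511, 308 and 399 CPM in TdTomato+ and 632, 624, 680.4, 534 and 577 CPM in TdTomato-, lower in 5 of 5 pairs at -0.40 ± 0.07 (edgeR adjusted p = 5.49e-04). The endothelial markers of these libraries had a median of -0.37, as given above, and whether Slc43a3 differs from them was not tested. Slc43a2 was higher at 0.69 ± 0.21 (edgeR adjusted p = 0.0434). Without pairs 6, 7 and 8 of P1 lung, none of these 3 calls was kept (Slc38a2 0.33, Slc43a3 -0.14 and Slc43a2 0.28), while Slc6a6 stayed at 0.77 (adjusted p = 0.00415). The serotonin carrier Slc6a4, known in lung endothelium, had 0, 0, 0.0413, 2.56 and 1.80 CPM in TdTomato+ and 0.719, 4.05, 6.47, 5.32 and 13.7 CPM in TdTomato- of P1 lung, lower in 5 of 5 pairs. Its effect of -4.55 ± 1.64 did not pass the threshold (edgeR adjusted p = 0.0895).

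The 3 members lower in P1 heart TdTomato+ were low genes. The glycine carrier Slc6a9 had 0.493, 0, 0.0448 and 0.944 CPM in TdTomato+ and 2.56, 1.21, 4.43 and 3.01 CPM in TdTomato-. Slc38a4 (SNAT4, neutral and cationic amino acids) had 0, 0.169, 0 and 3.20 CPM against 6.78, 11.8, 11.4 and 9.38 CPM. Slc7a4, an orphan of the cationic group, had 1.15, 0, 0 and 0.492 CPM against 3.99, 4.67, 4.95 and 7.08 CPM. In all 3 the groups did not overlap, and the log2 fold changes were -3.32 ± 0.64, -5.34 ± 1.32 and -4.67 ± 1.49 (edgeR adjusted p = 0.00126, 0.00870 and 0.0396). Fibroblast markers were lower in the same TdTomato+ libraries, as given above, with a median over libraries of the mean log2 CPM of 1.12 against 5.57. Lymphatic markers were lower too, at -0.22 against 3.33 by that measure, and summed to 122 to 193 CPM against 186.5 to 311 CPM. Of the 6 lymphatic markers measured, 1 averaged at least 10 CPM in TdTomato+ and 4 in TdTomato-. No marker of either list was at 0 in every library of either group, and the part of these markers in the results was not tested. With RNA integrity as a covariate the calls for Slc38a4 and Slc7a4 were lost (adjusted p = 0.0734 and 0.166). Leaving out 1 pair at a time ended the Slc38a4 call without pair 3 or 4, with effects from -7.43 to -4.42, and the Slc7a4 call without pair 3, 4 or 5, with effects from -6.01 to -3.88. The Slc6a9 call was kept, at -4.24 to -2.60. Slc7a4 shares 13.3% of its exonic bases with P2rx6 on the opposite strand. P2rx6 averaged 0.740 CPM in TdTomato- and 0 CPM in TdTomato+ of P1 heart, and its part in the Slc7a4 counts was not tested.

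Averaged over the 5 combinations, 3 members were higher in TdTomato+ and 2 lower, where 8.39% of all genes were called, 4.4% higher and 3.99% lower. Besides Slc6a6 and Slc7a5, Slc38a2 was higher by 0.11 ± 0.03 (edgeR adjusted p = 0.0450, higher in 16 of 23 pairs). Slc1a3 (EAAT1, glutamate) was lower at -1.85 ± 0.54 and Slc38a4 at -1.55 ± 0.47 (edgeR adjusted p = 0.0349 and 0.0431), each lower in 16 of 23 pairs. The calls for Slc38a2, Slc1a3 and Slc38a4 were lost on leaving out 20, 10 and 18 of the 23 pairs in turn. Without the pair block, 1 member was called higher for the mean, and 1 with RNA integrity as a covariate. With P1 heart pair 1 included it was also 1. At most 1 of the calls for Slc6a6, Slc7a5 and Slc38a2 was therefore kept in each of these fits. Effects that differed between combinations were found for 6 members, where 16.8% of all genes were called: Slc6a6, Slc38a2, Slc6a9, Slc7a5, Slc43a3 and Slc3a2. On leaving out each pair in turn, the Slc3a2 call was lost without 15 of the 23 pairs (adjusted p up to 0.0961) and the Slc43a3 call without P1 lung pair 7 or 8 (up to 0.0636).

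Organs were compared at 1 age. Between P1 lung and P1 heart 20 members were called, 16 higher and 4 lower in lung, against 43.1% of all genes, 22.5% higher and 20.6% lower. The run sheets put the heart and lung libraries in different batches, so organ and batch cannot be told apart here. Slc6a2 (noradrenaline) had 21.3, 24.7, 11.3, 7.63 and 16.0 CPM in the lung pairs and 2 counts in all of P1 heart, a ratio of 1515 (95% counting interval 419 to 12510). Slc6a14, a broad carrier of neutral and cationic amino acids, had 10.05, 2.20, 4.79, 14.2 and 11.104 CPM in lung and 1 count in P1 heart, a ratio of 1576 (283 to 62280). Slc6a4 had 0.359, 2.02, 3.26, 3.94 and 7.74 CPM in the lung pairs and at most 0.329 CPM in those of heart, a log2 fold change of 4.67 ± 1.26 (edgeR adjusted p = 0.00497). That call was lost without lung pairs 6, 7 and 8 (3.13, adjusted p = 0.111). Slc6a3 had 113 counts in lung and none in P1 heart, at least 28.6-fold higher.

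Slc1a1 had 9.55, 5.43, 4.33, 7.76 and 7.21 CPM in the lung pairs against at most 0.0616 CPM in the heart pairs, a ratio of 260 (111 to 801). Slc3a2 had 391, 296, 326, 277 and 322 CPM in lung, above every P1 heart pair, at 1.33 ± 0.11 (edgeR adjusted p = 3.22e-09). Slc43a3 had 582, 615, 596, 421 and 488 CPM in lung, also above every P1 heart pair, at 0.94 ± 0.12. Slc7a5 overlapped between these organs and was not called. Lower in lung were Slc6a6 at -1.001 ± 0.13 (edgeR adjusted p = 1.90e-06), Slc7a1 at -0.96 ± 0.25, Slc38a6 at -0.78 ± 0.19 and Slc1a5 at -0.65 ± 0.21. Slc6a6 had 356, 481, 591, 396 and 480.3 CPM in lung, below every P1 heart pair. Without lung pairs 6, 7 and 8 the calls for Slc7a1, Slc38a6 and Slc1a5 were lost (adjusted p = 0.231, 0.128 and 0.106). In that fit 13 members were called higher in lung and 1 lower, so calls among the members higher in lung were lost too. Lung epithelium markers summed to at most 11.3 CPM in any P1 heart library, so they stood apart between the organs too. Leukocyte markers summed to 80.8 to 3419 CPM in P1 lung libraries and 1.04 to 14.8 CPM in those of P1 heart, and lymphatic markers to 868 to 3018 CPM against 122 to 311 CPM. The part of these markers in the organ calls was not tested. Slc38a5 had 1.58 and 1.87 CPM in lung pairs 1 and 5 and 11.06, 19.4 and 8.23 CPM in pairs 6, 7 and 8, the pairs with the most epithelial marker RNA in TdTomato+. The other members higher in lung were Slc6a9, Slc7a2, Slc7a7, Slc7a8, Slc7a10, Slc7a11, Slc36a2 and Slc38a2, with log2 fold changes from 0.52 for Slc7a7 to 6.67 for Slc7a10. Slc7a10 shares 17.9% of its exonic bases with Lrp3 on the opposite strand, whose part in its counts was not tested. With P1 heart pair 1 included, the Slc7a7 difference had the opposite sign (-0.52, adjusted p = 0.280).

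**Figure D5:**
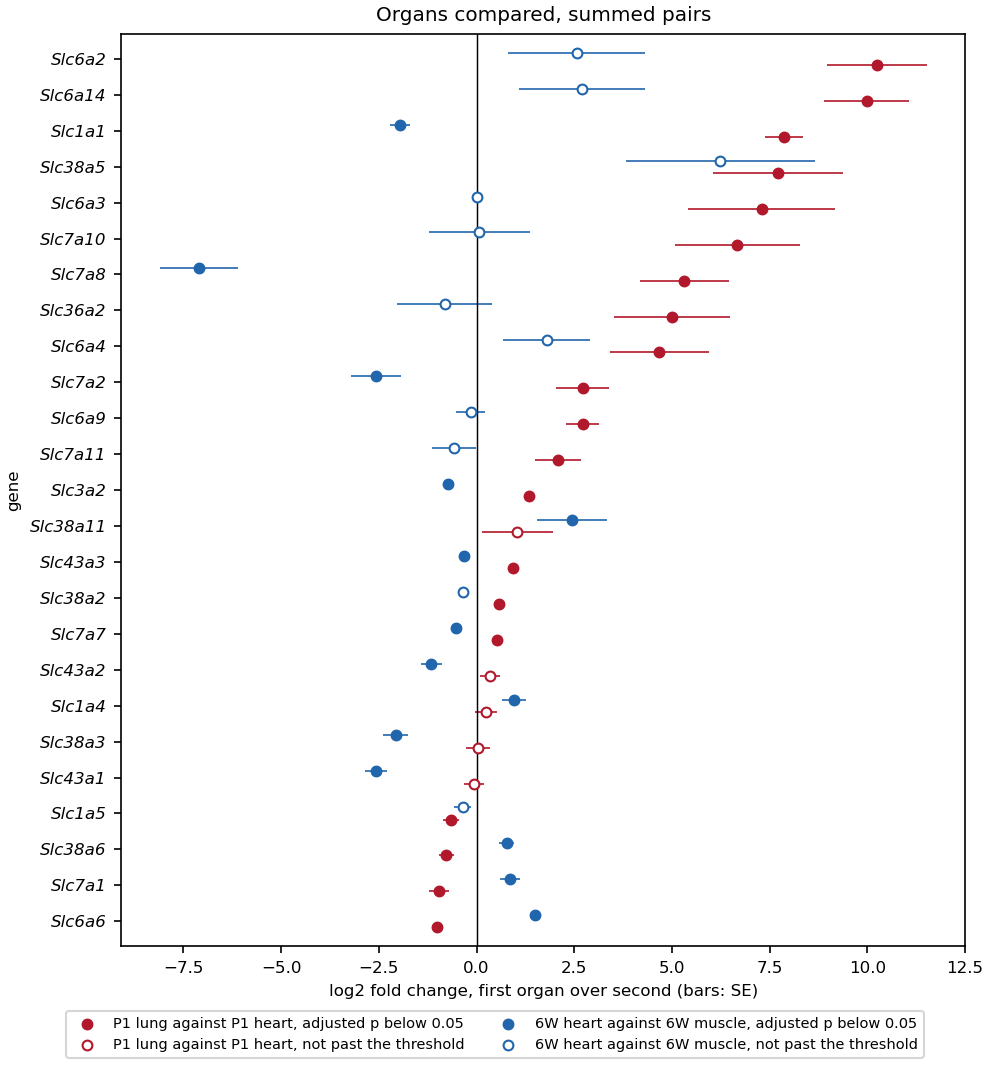
Log2 fold change with SE of members called in at least 1 organ comparison, red for P1 lung over P1 heart and blue for 6W heart over 6W muscle, filled where the adjusted p is below 0.05. The red points of Slc6a2 and Slc6a14 lie farthest to the right, and the blue point of Slc7a8 lies farthest to the left, and points of genes with few or no counts in 1 organ depend on the prior count.

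At 6 weeks heart and muscle differed in 14 members, 5 higher and 9 lower in heart, against 23% of all genes, 11% higher and 12% lower. With total count scaling the split was 7 higher and 8 lower. Slc6a6 was higher in heart, at 1199, 1026, 1333, 973 and 1058 CPM against 418, 399, 346 and 427 CPM, a log2 fold change of 1.49 ± 0.13 (edgeR adjusted p = 5.34e-08). Slc7a8 (chr14:54722215-54781886, minus strand) was found in 1 of the 5 pairs of 6W heart, at 0.415 CPM, and had 16.8, 4.68, 12.5 and 9.53 CPM in muscle. It was lower in heart at -7.10 ± 1.01 (edgeR adjusted p = 1.99e-05), and within muscle it was higher at 6 weeks than at P6, by 3.27 ± 0.81 (adjusted p = 0.00227). Slc43a1 at -2.57 ± 0.28, Slc1a1 at -1.96 ± 0.26, Slc38a3 at -2.07 ± 0.31 and Slc3a2 at -0.74 ± 0.11 were also lower in heart than in muscle, and none of these overlapped between organs.

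Within the second sequencing run, which holds the 6W muscle libraries and 2 pairs of 6W heart, 10 of the 14 calls were kept. Lost there were Slc1a4, Slc38a11, Slc38a6 and Slc43a3. Of the other members of this comparison, the arginine carrier Slc7a1 was higher in heart at 0.86 ± 0.26 and Slc7a2 (CAT2, arginine and lysine) lower at -2.57 ± 0.64 (edgeR adjusted p = 0.0176 and 0.00509). With sequencing run as a covariate Slc7a1 was not called (adjusted p = 0.0762). For age in heart, 21 of the 22 calls were kept within the first run. Over all 11 comparisons, 6 members were never called: the creatine carrier Slc6a8, the lysosomal carriers Slc36a1 and Slc38a7, and the low genes Slc6a17, Slc7a3 and Slc7a14.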

How the data were processed

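RNA sequencing libraries of sorted endothelial cells were used. The authors deposited raw counts per gene, and per the submitters' processing notes these come from STAR alignments to mm10 and featureCounts, both without a version. The labels name poly(A) selection with a capture kit, whereas the run sheets name a kit for full-length cDNA. The sources used here do not state the strand setting, so counts of overlapping and antisense genes are uncertain. RNA integrity numbers, a score, were read from the deposited run sheets. The authors' log2 fold changes were not used. Genes absent from the counts table were not analysed here, and its lowest total over 48 libraries was 56 counts.

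Counts were scaled by TMM in edgeR 4.0.16 (R 4.3.3), filterByExpr removed 12 genes, and a quasi-likelihood negative binomial model was fitted to 46 libraries with each pair as a block and 1 TdTomato+ effect for each of the 5 combinations. Organs and ages were compared on counts summed over the 2 fractions of each pair (15492 genes, 77 removed). Benjamini-Hochberg adjustment ran over all genes tested, and an adjusted p below 0.05 was called. Errors are SE, computed from each log2 fold change and its F statistic. RPKM is CPM per kilobase of the deposited gene length. Counting intervals are exact at 95% and cover counting error only, as do floors of 3 counts, since no molecular identifiers are named. The fits were checked on simulated counts.

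Pairing comes from the labels, which call same-numbered libraries matched. Deviations of partners from their group means correlated at -0.007 to 0.627 (median 0.321) over 9451 genes, above 0.1 in 22 of 23 pairs. In 19 pairs the partner correlated best with the TdTomato+ library among the TdTomato- libraries of its combination. It did not in 6W muscle pair 4 and in P6 muscle pairs 2, 4 and 5 (0.122, 0.115 and -0.007 in P6 muscle).

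The members, lists and comparisons were chosen with earlier results of these data known. Full values are given for the 6 members highest per length, for Slc3a2, Slc7a5 and Slc6a4, and for up to 4 higher and 4 lower called members with the smallest p in each comparison (up to 6 for the equality test), and of each pathway list up to 2 called genes with the smallest p were open to naming. Slc38a5 in P1 lung and the members called in both organs were singled out after their values were seen. Alternatives were no pair block, RNA integrity or run as covariate, each run or fraction alone, each combination alone, relative log expression factors, no filter, DESeq2 1.42.0, P1 heart pair 1 included, 6W heart pairs 5 and 6 left out, and each pair left out. Total count scaling and leaving out P1 lung pairs 6, 7 and 8 were chosen after seeing the data. Promoter windows come from RefSeq, overlapping exons from a GENCODE annotation of the same build.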

Additional observations from a re-analysis of the deposited data

Results flagged for a closer look

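Of 98 groups of libraries looked at for the members with at least 10 CPM, 6 held a library apart from the rest of its group by Dixon's ratio at its 95% value, which chance alone gives in about 1 group in 20. Pair 1 of P1 lung held 4 of the 6. Slc7a5 had 88.05 CPM in its TdTomato- library and 8.555 to 15.51 CPM in the others. Slc7a1 had 44.36 CPM in that library against 15.47 to 22.8, and 75.37 CPM in the TdTomato+ library against 21.22 to 24.64. Slc1a5 had 193.5 CPM in the TdTomato- library against 73.6 to 96.16. Slc38a2 had 153.9 CPM in 6W muscle TdTomato+ 2 against 246.6 to 263.2 in the other 3, and Slc7a6 had 20.65 CPM in P6 muscle TdTomato- 3 against 27.28 to 29.74.

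The TdTomato+ effect differed between the 5 combinations by edgeR's test of equality for Slc6a6 (adjusted p = 1.848e-05), Slc38a2 (0.001245), Slc6a9 (0.003874), Slc7a5 (0.01059), Slc43a3 (0.01601) and Slc3a2 (0.04122). These 6 are 14.6% of the 41 members, near the 16.8% of all genes called by the same test.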

How the results depend on the processing

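Of 102 called member results, 2050 alternative values were computed. The direction and call were kept in 1782 and the call was lost in 264, 129 of these on leaving out a pair. In 4 the sign turned: Slc7a7 between P1 lung and P1 heart with P1 heart pair 1 included (-0.52), and Slc1a3 (1.12), Slc38a4 (1.47) and Slc7a4 (0.48) for heart age in the TdTomato+ libraries alone. DESeq2 lost 1 call.

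Without the pair block the members called went from 5 to 1 in P1 lung, 1 to 0 in P6 muscle, 3 to 0 in 6W muscle, 5 to 2 for the mean and 6 to 2 for equality. P1 heart stayed at 4. With P1 heart pair 1 included they went to 1 in P1 lung, 0 in P6 muscle, 0 in 6W muscle, 1 for the mean and 2 for equality. Over all genes that fit called 154, 7, 8, 132 and 407, where the main fit called 1522, 152, 813, 1306 and 2612. RNA integrity as a covariate left 2 members in P1 heart and 1 for the mean, and 737 and 88 of all genes. Fitting each combination alone left 1 member in P1 heart and 1 in P1 lung and gave 3 in P6 muscle, beside 447, 741 and 443 of all genes. DESeq2 gave 8 members in P1 lung, 1 in 6W heart and 11 for equality, beside 2238, 552 and 4095 of all genes. Without P1 lung pairs 6, 7 and 8, 1 member was left in P1 lung and 2 for the mean, beside 247 and 663 of all genes. Leaving out each pair in turn gave 2 to 5 in P1 heart, 3 to 5 in P1 lung, 0 to 2 in P6 muscle, 0 in 6W heart, 1 to 3 in 6W muscle, 2 to 8 for the mean, 4 to 8 for equality, 19 to 23 for lung against heart, 20 to 25 for heart age, 21 to 23 for muscle age and 11 to 14 for heart against muscle. Over all genes, leaving out each pair gave 897 to 3348 in P1 heart, 874 to 1662 in P1 lung and 67 to 86 in P6 muscle. It gave 24 to 285 in 6W heart and 239 to 618 in 6W muscle. For the mean it gave 880 to 2176 of all genes, and for equality 2081 to 3363. Lung against heart ranged from 5701 to 6792 and heart age from 7373 to 8060. Muscle age ranged from 6383 to 6700, and heart against muscle from 2727 to 3884. The cause of these shifts was not tested. Lung against heart went from 20 to 14 without lung pairs 6, 7 and 8, heart age from 22 to 15 in the TdTomato+ libraries alone, muscle age from 22 to 17 in either fraction alone, and heart against muscle from 14 to 10 with run as a covariate. All genes called went from 6679 to 4083 for lung against heart and from 8055 to 6437 for heart age. For muscle age they went from 7105 to 6287 (TdTomato-) and 5082 (TdTomato+), and for heart against muscle from 3578 to 1841. Over all genes, 1118 were called without the block and 2289 with it in P1 heart, 752 and 1522 in P1 lung, and 254 and 813 in 6W muscle. These numbers were 26 and 152 in P6 muscle, 384 and 1306 for the mean, and 1259 and 2612 for equality.

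Depth limits the low members most: those under 1 CPM rest on few counts per library, and their fitted folds depend on the prior count.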
